A study of Mus musculus with 5 samples.

Results

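The circadian clock and PAR-bZIP genes examined here are Nr1d1, Nr1d2, Hlf, Dbp, Tef, Per1, Per2, Per3, Arntl and Clock. They were chosen by name, and each was read by the probe sets annotated to its symbol alone. All 10 were measured, each by 1 probe set, among the 19938 genes of the array that could be tested. Expression was measured in whole mammary gland of female FvB/N mice, 8 weeks old, with 1 Affymetrix whole-transcript array per mouse. The 2 control mice carried the MMTV-rtTA transgene alone, and the 3 cyclin D1 mice carried rtTA together with a CCND1 transgene under the tetracycline system. All 5 mice therefore carried rtTA, the doxycycline-dependent transactivator, placed by the MMTV promoter mainly in mammary epithelium. The labels give 7 days of doxycycline, but word this for animals with a KE mutant of CCND1 and do not say whether the controls received the drug. The sources used here do not give the hour at which glands were collected.

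The clock is a feedback loop of transcription factors found in nearly every mammalian cell. CLOCK and ARNTL (also called BMAL1) bind E-box elements and switch on the period genes and the REV-ERB genes Nr1d1 and Nr1d2. The period proteins return to the nucleus and inhibit CLOCK and ARNTL, and the REV-ERB proteins repress Arntl through ROR elements. DBP, TEF and HLF are the PAR-bZIP factors, which carry the rhythm to output genes by binding D-box elements. Transcripts of the E-box and D-box genes and of Arntl therefore peak at opposing times of day in mouse peripheral tissues, and Clock cycles only weakly in many of them. In the mammary gland clock gene rhythms are known to change between virgin, pregnant and lactating states.

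The elements that divide these genes into opposing phases were looked for in RefSeq promoter windows (GRCm38.p6), which run from 250 bases before a start site to 50 after it, because the comparisons below set the phases against each other. Of the 10 genes, 9 matched, with 14 windows, since some genes have several start sites. The motifs were searched on both strands as CACGTG (E-box), TTANGTAA or TTACNTAA (D-box), TAGGTCA or TGGGTCA (the core of the ROR and REV-ERB element) and TGACGTCA (cAMP response element), and no match overlapped one of another motif. Among all 32851 windows of this length, 7.15% hold the E-box letters, 2.32% the D-box letters, 6.45% the ROR core and 1.79% the cAMP response element. The stretches that hold a match in the clock genes follow 5′ to 3′ on the gene's strand, with the match in capitals, and for Tef, which has an E-box before both start sites, only the first is shown.
Hlf, cAMP response element 9 bases before the start, chr11:90390918-90390987, minus strand: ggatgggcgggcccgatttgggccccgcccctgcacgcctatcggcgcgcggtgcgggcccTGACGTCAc
Tef, E-box, chr15:81802523-81802572, plus strand: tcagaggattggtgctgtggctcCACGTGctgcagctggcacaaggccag
Per1, E-box, chr11:69098774-69098799, plus strand: acccaagtcCACGTGcagggatgtgt
Per3, a pair of D-boxes, chr4:151044806-151044880, minus strand: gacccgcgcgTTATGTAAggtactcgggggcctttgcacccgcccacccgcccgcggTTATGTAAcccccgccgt
Arntl, ROR core in the transcribed part of the window, chr7:113207532-113207556, plus strand: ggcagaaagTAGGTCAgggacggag
The windows of Nr1d1, Nr1d2, Dbp and Clock hold none of these letters, which says nothing of elements outside the windows.

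The arrays differed in the spread of their values, and every group difference below is read beside that. Control 1 and control 2 had an SD across genes of 0.735 and 0.926, and the cyclin D1 arrays one of 1.20 to 1.38, while the median gene lay between 2.72 and 2.83 on all 5. The controls correlated with each other at Pearson r = 0.779 across genes, and the cyclin D1 arrays with one another at 0.955 to 0.962. Control 2 correlated with the cyclin D1 arrays at 0.841 to 0.884, above its correlation with control 1, and control 1 with them at 0.701 to 0.743. Each result is therefore given on the deposited scale and after a second quantile normalization over the 19938 genes, which gives every array the same distribution ("renormalized"). As a rough floor, the mean of 1015 olfactory receptor genes lay at 2.52 and 2.38 in the controls and at 1.97 to 2.23 in the cyclin D1 arrays, and no clock gene was at or below it on any array. Ccnd1 itself, which would show the transgene if the probe set reads it, was at 4.04 and 3.49 in the control pair, against 4.63, 4.92 and 4.0 in the cyclin D1 glands. The Ccnd1 groups overlapped and its log2 difference of 0.75 (SE 0.32, limma adjusted p = 0.218) did not pass. Labels of sample groups were therefore not checked by the transgene.

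Of the 10 clock genes, 2 were higher in cyclin D1 glands on the deposited scale, Nr1d2 and Hlf, and 0 were lower. Over all genes tested, limma called 5.38% higher and 0.687% lower at an adjusted p under 0.05. At an unadjusted p under 0.05, 3 clock genes were higher, Clock being the third, and 0 were lower, beside 3235 higher and 2009 lower of all 19938 genes. After renormalization limma called 0 of the 10 in either direction, where 0.256% of all genes were higher and 0.105% lower, and 0 had an unadjusted p under 0.05. The median log2 difference over the 10 was 0.24 as deposited and 0.25 renormalized, against -0.05 and -0.02 over all genes.

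**Figure D1:**
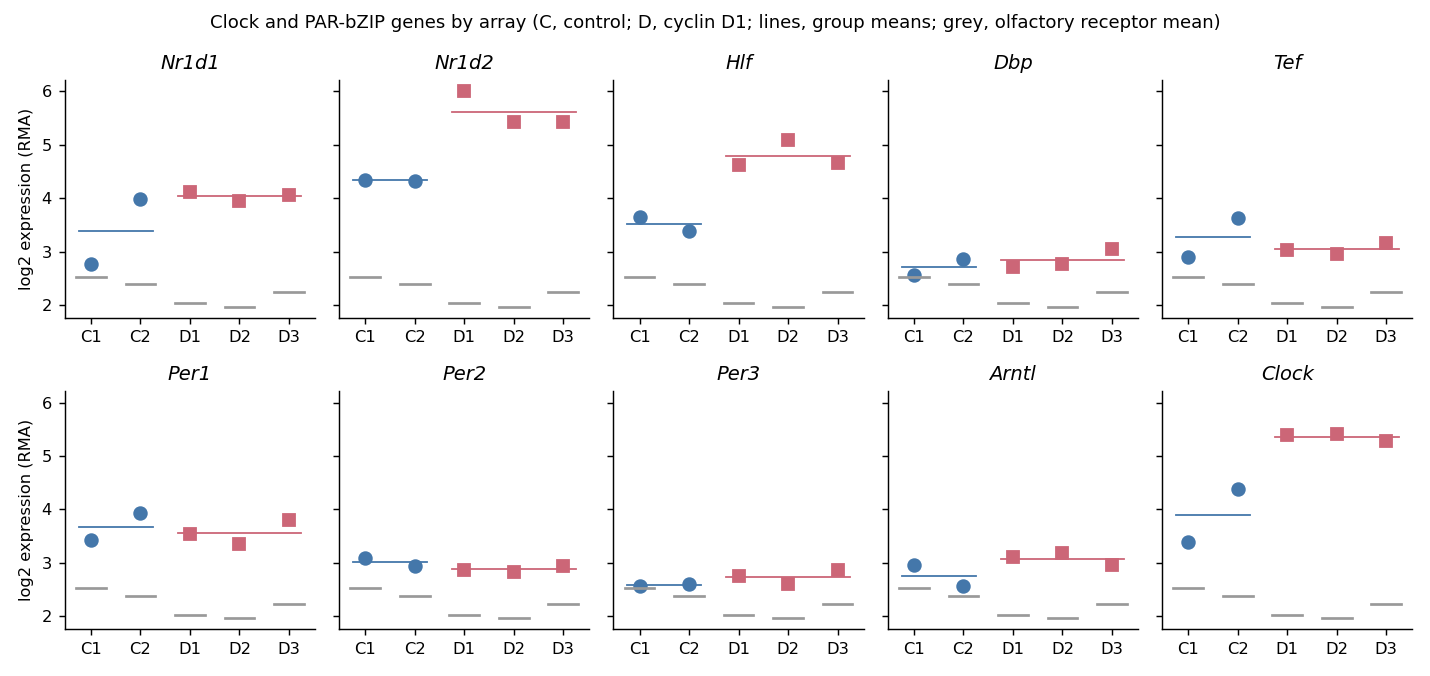
Deposited log2 expression of each gene on each array (C1 and C2, controls, circles; D1 to D3, cyclin D1 glands, squares), with group means as lines and the olfactory receptor mean of each array in grey. Nr1d2, Hlf and Clock lie higher on all 3 cyclin D1 arrays than on both controls, and the other 7 genes overlap.

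The REV-ERB genes encode heme-binding nuclear receptors that act as repressors of Arntl. Nr1d2 (REV-ERB beta, probe set 10417734) stood at 4.35 and 4.33 in the control pair, against 6.01, 5.42 and 5.42 in the cyclin D1 glands. The 2 controls were almost equal and all 3 cyclin D1 glands were higher, without overlap. Nr1d2 thus rose from 4.34 ± 0.015 (SD, n = 2) to 5.62 ± 0.34 (SD, n = 3), 2.43-fold (log2 difference 1.28, SE 0.23, limma adjusted p = 0.0395). Renormalized, it stood at 5.59 and 4.84 in the control pair, against 5.38, 4.76 and 5.11 in the cyclin D1 glands. On that scale the arrays of the groups were interleaved and the difference had the opposite sign, -0.13 (SE 0.30, limma adjusted p = 0.826). On the deposited scale Nr1d2 did not pass without cyclin D1 replicate 1, 2 or 3 (limma adjusted p = 0.102, 0.11 and 0.0861). In the fits without replicate 1 or 2 limma called 0 of all genes, so every gene failed there. Without replicate 3 it called 1.5% of all genes higher. The Nr1d2 difference was 1.29 without control 1 and 1.27 without control 2.

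Nr1d1 (REV-ERB alpha, probe set 10390691) is usually the more strongly cycling of the pair. Its values were 2.77 and 3.98 in the control pair, against 4.11, 3.95 and 4.06 in the cyclin D1 glands. Control 1 stood apart from the other 4 arrays, and control 2 lay within the cyclin D1 range. The log2 difference of 0.66 (SE 0.36, 95% interval -0.25 to 1.56, limma adjusted p = 0.304) did not pass. Without control 1 it was 0.05, and without control 2 it was 1.26, so that the value depends on which control is used. The renormalized values of Nr1d1 were 2.71 and 4.37 in the controls and 3.70 to 3.97 in the cyclin D1 glands, the controls lying on either side of the cyclin D1 glands.

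Among the PAR-bZIP genes, Hlf (hepatic leukemia factor, probe set 10389786) was the member that passed. It stood at 3.64 and 3.39 in the control pair, against 4.61, 5.09 and 4.65 in the cyclin D1 glands, with no overlap. Hlf rose 2.41-fold, from 3.52 ± 0.18 (SD, n = 2) to 4.78 ± 0.27 (SD, n = 3). On the log2 scale it differed by 1.27 with an SE of 0.20 (limma adjusted p = 0.0339). Renormalized, the controls were at 4.20 and 3.46 and the cyclin D1 glands at 4.28, 4.51 and 4.48, still without overlap, and the difference of 0.59 (SE 0.25, limma adjusted p = 0.290) did not pass. Renormalized without control 1 the Hlf difference was 1.09 (limma adjusted p = 0.0389), where 2.78% of all genes were called higher and 4.48% lower, and without control 2 it was 0.24 (limma adjusted p = 0.319). On the deposited scale Hlf did not pass without cyclin D1 replicate 1, 2 or 3 (limma adjusted p = 0.121, 0.0917 and 0.0827). Limma called 0 of all genes without replicate 1 or 2, so Hlf shared that failure with every gene. Without replicate 3 it called 1.5% of all genes higher. As deposited the Hlf difference was 1.40 without control 1 and 1.14 without control 2.

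Dbp (D-box binding protein, probe set 10553092), whose transcript is among the most strongly cycling of the family, was dim. It read 2.57 and 2.86 in the control pair, against 2.71, 2.76 and 3.04 in the cyclin D1 glands. Cyclin D1 replicate 3 was highest and control 1 lowest, and the groups overlapped. The log2 difference was 0.12 (SE 0.18, 95% interval -0.32 to 0.57, limma adjusted p = 0.678). Control 1 stood only 0.044 above the olfactory receptor mean of its array and control 2 0.48 above, against 0.68 to 0.81 in the cyclin D1 glands, so a lower level in control 1 could hardly have been read.

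Tef (thyrotroph embryonic factor, probe set 10425601) stood at 2.90 and 3.63 in the control pair, against 3.02, 2.95 and 3.15 in the cyclin D1 glands. Control 2 was the highest array and control 1 the lowest, with the cyclin D1 glands between them. The difference of -0.22 (SE 0.24, 95% interval -0.83 to 0.38, limma adjusted p = 0.577) did not pass. Renormalized without control 1 it was -0.86 (limma adjusted p = 0.0394), a call that rests on control 2 alone, and without control 2 on the deposited scale it was 0.14. The 3 PAR-bZIP genes thus gave differences of 1.27, 0.12 and -0.22, and only Hlf passed on the deposited scale with all arrays.

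The period genes encode the inhibitors of CLOCK and ARNTL, and none of the 3 passed the test. Per1 (probe set 10377439), which also responds to glucocorticoids and cAMP, stood at 3.42 and 3.94 in the control pair, against 3.54, 3.35 and 3.80 in the cyclin D1 glands. The arrays of both groups were interleaved, with control 2 highest. The difference was -0.12 (SE 0.23, 95% interval -0.69 to 0.45, limma adjusted p = 0.759). Renormalized, all 3 cyclin D1 values of Per1, 3.47, 3.29 and 3.72, lay below both controls, 3.75 and 4.30, and the difference was -0.53 (SE 0.23, limma adjusted p = 0.302). All cyclin D1 arrays lay below both controls in 19.5% of all genes on that scale.

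Per2 (probe set 10356601) had the narrowest spread over all 5 arrays, with controls at 3.09 and 2.94 and cyclin D1 glands at 2.86, 2.83 and 2.95. Control 1 was highest, and control 2 lay just under cyclin D1 replicate 3. Its difference of -0.14 (SE 0.13, 95% interval -0.47 to 0.20, limma adjusted p = 0.534) did not pass. Per3 (probe set 10518781) stood at 2.56 and 2.61 in the control pair, against 2.76, 2.61 and 2.86 in the cyclin D1 glands, a difference of 0.16 (SE 0.14, 95% interval -0.20 to 0.51, limma adjusted p = 0.499). Cyclin D1 replicates 1 and 3 were the higher ones, while replicate 2 equalled control 2. Control 1 lay 0.041 above the olfactory receptor mean of its array, so a lower level there could hardly have been read. Renormalized, the 3 cyclin D1 values of Per3 lay above both controls, and the difference of 0.28 (SE 0.14, limma adjusted p = 0.346) did not pass.

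Arntl and Clock encode the activators and form the opposing arm. Arntl (probe set 10556463) stood at 2.95 and 2.57 in the control pair, against 3.10, 3.19 and 2.95 in the cyclin D1 glands. Control 2 was lowest, and control 1 equalled cyclin D1 replicate 3 to 2 decimals. The difference of 0.32 (SE 0.17, 95% interval -0.12 to 0.76, limma adjusted p = 0.302) did not pass and was nearly the same after renormalization, 0.34 (SE 0.20, limma adjusted p = 0.409). Its sign was positive in each alternative that was run, with values of 0.11 to 0.60 when 1 array was left out on either scale.

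Clock (probe set 10530733) had the largest difference of the 10 genes on the deposited scale, while Hlf had the largest after renormalization. It stood at 3.40 and 4.39 in the control pair, against 5.39, 5.41 and 5.28 in the cyclin D1 glands. The 3 cyclin D1 glands lay close together and higher than both controls, which differed from each other by 0.995. The log2 difference of 1.47 (SE 0.30, limma adjusted p = 0.0564), 2.76-fold, did not pass. Clock did pass with arrays centred on their medians (limma adjusted p = 0.0452, where 6.32% of all genes were called higher) and with genes dimmer than the median gene left out (limma adjusted p = 0.0396, where 14.6% of the remaining genes were). Without control 2 it also passed (1.96, limma adjusted p = 0.0301, where 6.85% of all genes were called higher and 5.33% lower), as did Nr1d1. Renormalized, Clock was at 3.68 and 4.94 in the control pair, against 4.87, 4.75 and 5.01 in the cyclin D1 glands. Control 2 then lay among the cyclin D1 glands, and the difference of 0.57 (SE 0.38, limma adjusted p = 0.462) became -0.068 without control 1 and 1.29 without control 2 (limma adjusted p = 0.00797, where 11.1% of all genes were called higher and 15.8% lower).

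**Figure D2:**
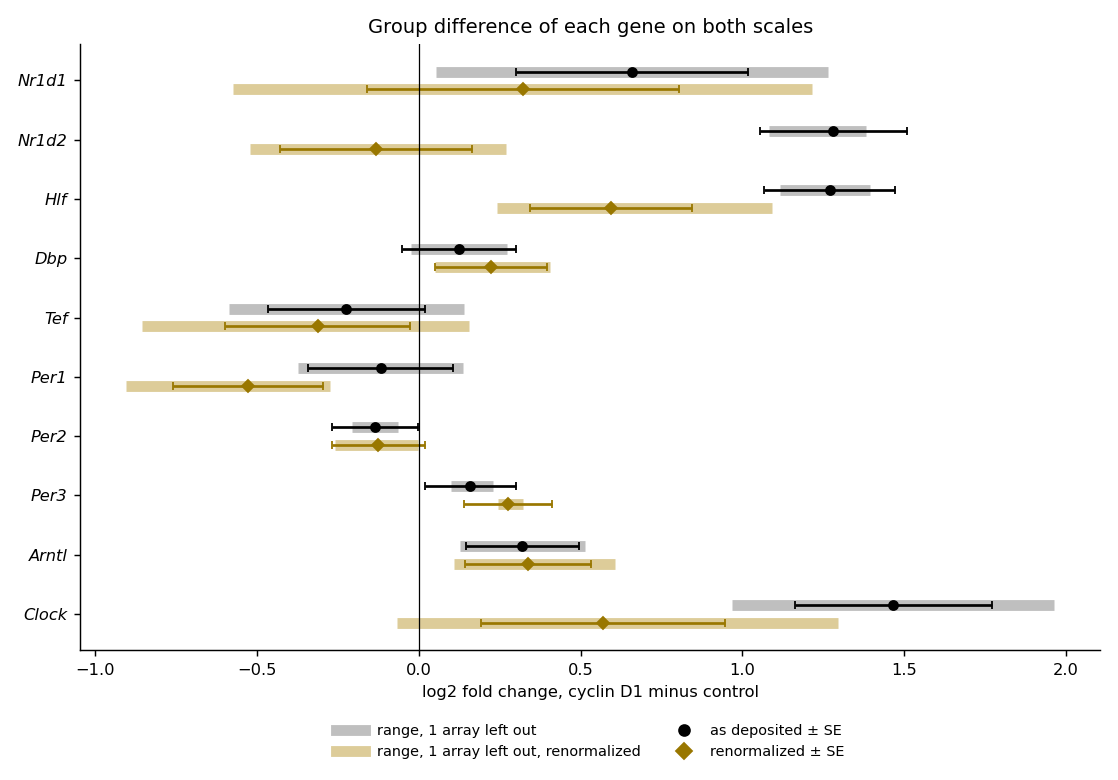
Log2 difference, cyclin D1 minus control, of each gene as deposited (black circles) and renormalized (brown diamonds), with limma standard errors and, as bands, the range over fits that leave out 1 array. Nr1d2, at 1.28 as deposited, lies at -0.13 renormalized, whereas Arntl lies at 0.32 and 0.34.

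Set side by side, the opposing phases did not move in opposite directions as groups. In the E-box and D-box arm (Nr1d1, Nr1d2, Dbp, Tef, Hlf and the period genes) 5 of 8 differences were positive, with a median of 0.14. In the opposing arm both differences were positive, 0.32 for Arntl and 1.47 for Clock. Its median of 0.89 is the midpoint of these 2 genes, which lay far apart, and not a level that either had. Renormalized, the arms had 4 of 8 and 2 of 2 positive differences and medians of 0.05 and 0.45. No test was made on either arm, since the genes had been chosen with results of these arrays known. Within the first arm the values ran from -0.22 for Tef to 1.28 for Nr1d2, a wider range than the distance between the medians of the arms.

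The clock genes with large differences were also the bright ones. Genes were ranked by mean expression over the 5 arrays into 10 bins of equal size. Nr1d2 and Clock belong to the brightest bin, where the median log2 difference was 1.59 and limma called 35.9% of genes higher. Hlf and Nr1d1 belong to the next bin, with a median of 0.67 and 13.4% called higher. The mean includes the 3 cyclin D1 arrays, so genes high in cyclin D1 glands reach brighter bins in part through that difference. Control means of Nr1d2, Clock, Hlf and Nr1d1 (4.34, 3.89, 3.52 and 3.38) lay below the lower edges of their bins (4.44 and 3.67). The bin medians are therefore not an independent reference. The differences of Nr1d2 (1.28) and Clock (1.47) were thus below the median of genes of like brightness, that of Nr1d1 (0.66) was equal to it within 0.01, and that of Hlf (1.27) was above it. Per1, in bin 8 of 10 with a median of 0.17, and Tef, in bin 7 with 0.025, were below theirs. Arntl and Per2 share bin 6, with a median of -0.064, and Arntl was above it and Per2 below it. Dbp and Per3, in bin 5 with a median of -0.11, were above it. Renormalized medians were 0.36 in the brightest bin and 0.11 in the next one. Whether the difference in array spread accounts for the calls of Nr1d2 and Hlf was not tested.

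**Figure D3:**
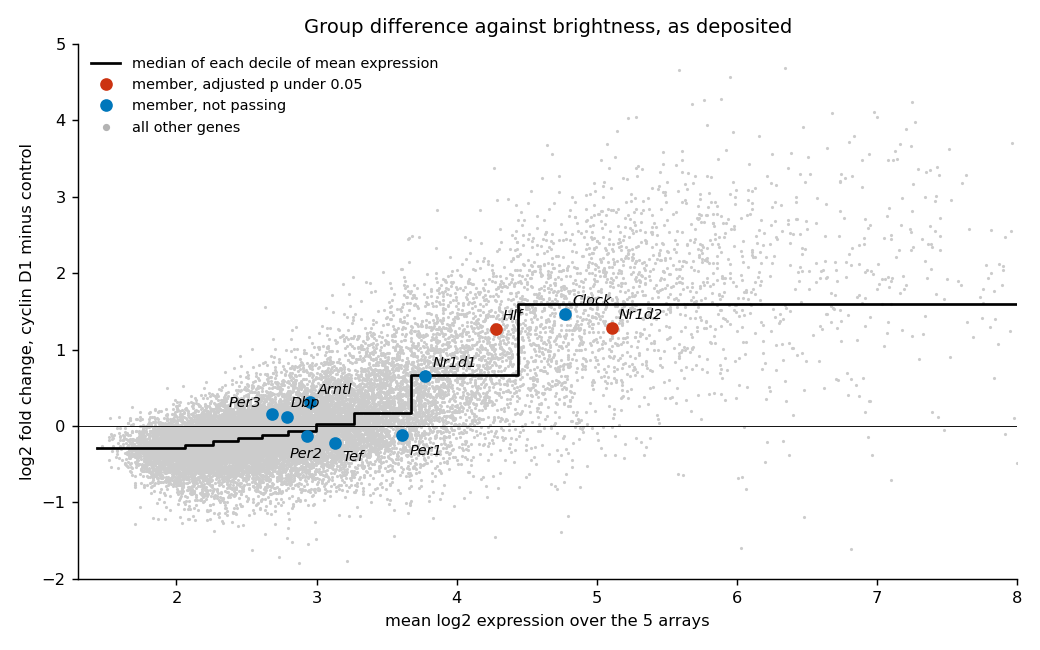
Log2 difference, cyclin D1 minus control, against mean log2 expression over the 5 arrays for all genes (grey) and the 10 clock genes (red where the adjusted p was under 0.05, blue otherwise), with the median of each of 10 equal bins of genes as a step line; genes outside the axes are not drawn. Nr1d2 and Clock lie just under the step of 1.59 of the brightest bin, and Hlf lies above the step of 0.67 of its bin.

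Without overlap between groups, 3 of the 10 genes were higher on all cyclin D1 arrays as deposited, beside 22.4% of all genes, and 0 were lower on all of them, beside 22.6%. Renormalized, Hlf and Per3 lay higher on all 3 arrays, beside 20.1% of all genes, and Per1 lay lower, beside 19.5%. Hlf was the one gene without overlap on both scales.

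Within the groups, the members of the opposing phases also differed between mice. Control 2 minus control 1 was 1.21 for Nr1d1, 0.73 for Tef, 0.51 for Per1 and 0.30 for Dbp, and it was -0.39 for Arntl. The sign for Arntl was thus opposite to that of the first 4 genes, and it stayed so after renormalization, with 1.66, 0.92, 0.55 and 0.35 against -0.47. Not all genes of the E-box and D-box arm followed. Per3 differed by only 0.042 and Nr1d2 by -0.022, while Hlf (-0.25) and Per2 (-0.14) were lower in control 2, and Clock was higher by 0.995. The absolute difference between the controls had a median of 0.34 over the 10 clock genes and of 0.30 over all genes, and it was above the latter in 5 of the 10. The difference of 2 mice allows no test.

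Among the cyclin D1 glands, replicate 3 had the highest value of Dbp, Tef, Per1, Per2 and Per3 and the lowest of Arntl and Clock. Replicate 3 was the highest of the 3 arrays in 44.8% of all genes and the lowest in 24.9%, and its values had the smallest spread of the 3. Renormalized, with 35.0% and 36.8%, replicate 3 remained highest for those 5 genes and lowest for Arntl, was also highest for Nr1d1, and was highest rather than lowest for Clock. The distances were small, from 0.12 for Per2 to 0.45 for Per1 between the highest and lowest array, against 0.23 for Arntl and a median of 0.30 over all genes.

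**Figure D4:**
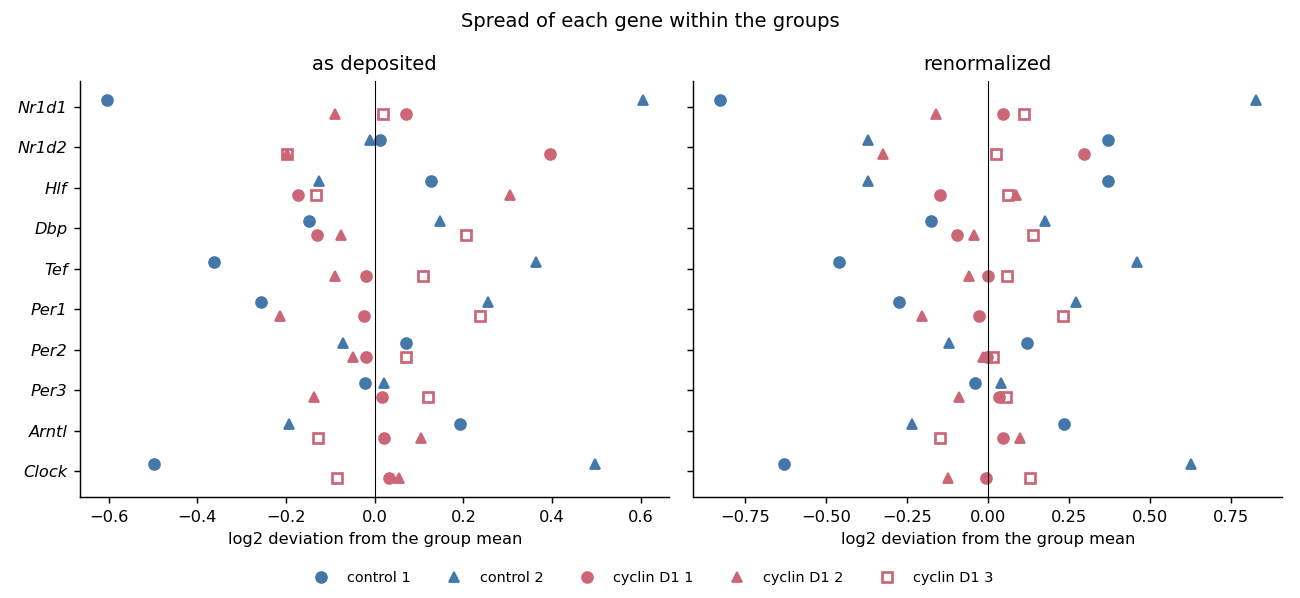
Deviation of each array from the mean of its own group, in log2 units, as deposited (left) and renormalized (right), for controls 1 and 2 (blue circles and triangles) and cyclin D1 replicates 1, 2 and 3 (red circles, triangles and open squares). Nr1d1, Tef and Per1 lie to the right in control 2, by 1.21, 0.73 and 0.51 over control 1, and Arntl lies to the left.

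The other loop genes include the cryptochromes, which inhibit CLOCK and ARNTL with the period proteins, the ROR activators of Arntl, and the repressors Bhlhe40, Bhlhe41, Nfil3 and Ciart. Of 11 measured, limma called 0 higher and 0 lower, beside 5.38% and 0.687% of all genes, so these counts are near the shares. At an unadjusted p under 0.05 the counts were 2 and 0, beside 3235 higher and 2009 lower of all 19938 genes. The median difference was 0.18 as deposited and 0.21 renormalized. The smallest p belonged to Tipin, a partner of Timeless at replication forks, which stood at 3.41 and 3.43 in the control pair, against 4.14, 5.28 and 5.46 in the cyclin D1 glands (1.54, SE 0.41, limma adjusted p = 0.0929). Cry1 came next, with controls at 3.18 and 3.86 and cyclin D1 glands at 4.15, 4.27 and 4.24. All 3 cyclin D1 values of Cry1 were higher than both controls, and its difference of 0.71 (SE 0.23, limma adjusted p = 0.131) did not pass and was 0.28 renormalized.

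The kinases, phosphatase and ubiquitin enzymes that set the stability of clock proteins gave the most calls. Of 14 measured, 4 rose and 0 fell, with a median difference of 0.68, against 0.28 after renormalization, when 1 rose. Over all genes limma called 5.38% higher as deposited and 0.256% renormalized. The 4 belong to the brightest of 10 equal bins of genes by mean expression over the 5 arrays, where 35.9% were called higher. Control means of Csnk1a1, Csnk2a1, Gsk3b and Usp7 (4.41, 4.18, 3.82 and 3.26) lay below that bin's lower edge of 4.44. The share in the bin is therefore not an independent reference. Csnk1a1, a casein kinase that phosphorylates period proteins, stood at 4.44 and 4.39 in the control pair, against 7.42, 7.25 and 6.87 in the cyclin D1 glands (2.77, SE 0.20, limma adjusted p = 0.0147). Usp7, a deubiquitinase that acts on cryptochromes, went from 3.04 and 3.47 to 6.73, 7.11 and 6.12 (3.40, SE 0.33, limma adjusted p = 0.0165). These groups stood far apart, and Usp7 also passed after renormalization (2.67, limma adjusted p = 0.0434), while Csnk1a1 did not (1.17, limma adjusted p = 0.107). Gsk3b, which phosphorylates REV-ERB alpha, rose by 1.37 and the casein kinase gene Csnk2a1 by 1.61 (limma adjusted p = 0.0397 and 0.0493), with renormalized differences of 0.42 and 0.24 that did not pass. All 4 enzymes also act in many processes outside the clock.

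Of 8 output genes, 1 rose and 0 fell, beside 5.38% and 0.687% of all genes, a count near those shares in so short a list. The median was 0.29 as deposited and 0.13 renormalized. Nampt, the NAD-producing enzyme gene driven by CLOCK and ARNTL, stood at 2.52 and 3.08 in the control pair, against 7.29, 7.27 and 5.96 in the cyclin D1 glands, a difference of 4.04 (SE 0.47, limma adjusted p = 0.0198). Control 1 lay at the olfactory receptor mean of its array, so the difference is inexact. Wee1, the mitotic kinase gene with E-boxes, was also higher on all 3 cyclin D1 arrays, but its difference of 1.37 did not pass (limma adjusted p = 0.0963); it was chosen here after its values were seen. Among 13 glucocorticoid-induced genes, which include Per1, Sgk1 rose by 1.28 (SE 0.23, limma adjusted p = 0.0417) and 0 fell. That count is likewise near the shares of 5.38% and 0.687% over all genes. Sgk1 went from 2.48 and 2.68 to 3.83, 4.22 and 3.54, and since control 1 lay below the olfactory receptor mean of its array the difference is inexact. The median of that list was 0.60 as deposited and 0.14 renormalized.

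Immediate-early genes share with Per1 a rapid response to stimulation. Of 12 measured, limma called 0 higher and 0 lower, beside 5.38% and 0.687% of all genes. In a list of 12, counts of 0 are near those shares. At an unadjusted p under 0.05 the counts were also 0 and 0, beside 3235 higher and 2009 lower of all 19938 genes. The list median was -0.038, against -0.05 over all genes. Btg2 and Ier3, with the smallest p, differed by 0.75 and -0.39 (limma adjusted p = 0.359 and 0.364).

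**Figure D5:**
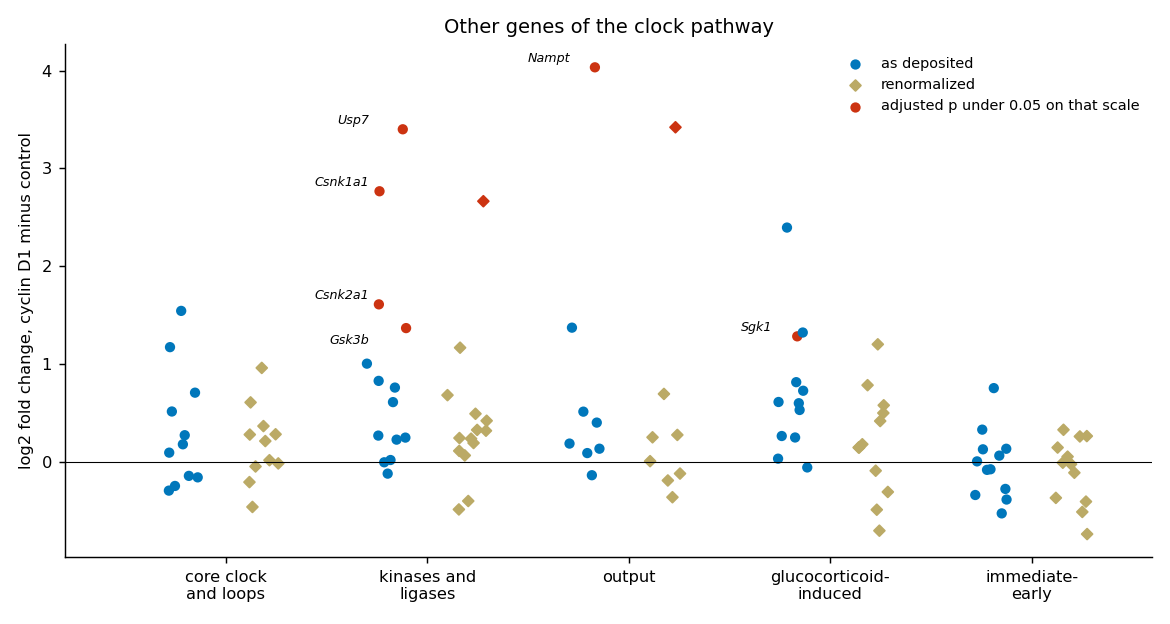
Log2 difference, cyclin D1 minus control, of the listed genes outside the 10 members, as deposited (blue circles) and renormalized (brown diamonds), with red marking an adjusted p under 0.05 on that scale. Usp7 and Nampt are red on both scales, and the immediate-early genes lie around 0.

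Luminal markers of mammary epithelium moved with the same comparison, and in bulk tissue fewer cells of a type and less RNA per cell cannot be told apart. Of 7 luminal and alveolar markers, 3 rose (Epcam, Elf5 and Csn3) and 0 fell, beside 5.38% and 0.687% of all genes. All 7 were higher on every cyclin D1 array than on both controls, beside 22.4% of all genes. Renormalized, limma called 0 of the 7 (4 higher at an unadjusted p under 0.05), and 5 lay above both controls, beside 20.1% of all genes. Their median difference was 1.14 against 2.49 as deposited, with Krt8 at 0.16 and Krt18 at -0.55 renormalized. The summed luminal level, on the linear scale as deposited, was 351 and 530 in the controls and 2520 to 5204 in the cyclin D1 glands. Of 6 basal markers 1 rose, Acta2 (2.48), which arterial smooth muscle also expresses. Krt5 (0.55) and Trp63 (0.36) differed upward without passing, and Krt14 (-0.098), Oxtr (-0.29) and Mylk (-0.11) downward. The summed basal level went from 58.4 and 68.1 to 125 to 241. Acta2 was the brightest of the 6 on every array and weighs most in that sum. Adipocyte markers, with 0 of 6 called, summed to 755 and 938 in the controls and to 408 to 1707 in the cyclin D1 glands. Fibroblast markers, with 0 of 6 called, summed to 130 and 441 against 327 to 632. Their median differences were -0.084 and 0.38 as deposited and -1.08 and -0.30 renormalized. Renormalized, 0 of 6 adipocyte and 3 of 6 fibroblast differences were positive. Limma called 0 of either list there, and 1 adipocyte and 2 fibroblast markers were lower at an unadjusted p under 0.05. Of 5 endothelial, 5 leukocyte, 4 skeletal muscle and 2 lymph node markers limma called 0. As deposited 1, a leukocyte marker, had an unadjusted p under 0.05. Renormalized, 2 skeletal muscle markers and 1 lymph node marker did, all lower. Control 1 had the lowest sum of luminal, basal, fibroblast, endothelial and leukocyte markers, and also the lowest sum over all genes, 198198 against 244371 in control 2 and 349495 to 413229 in the cyclin D1 glands. Nr1d1, Dbp, Tef, Per3 and Clock were lowest in control 1 too. None of the epithelial and fat cell markers was at or below the olfactory receptor mean on every array. The same held for the skeletal muscle and lymph node markers, and only 1448 of all 19938 genes lay there on every array. The labelled tissue was therefore not checked by that criterion. The part of cell composition in the values of Nr1d2, Hlf and Clock was not tested.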

How the data were processed

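Each array gave 1 column of deposited log2 expression values. Per the submitters' processing notes, the software was Expression Console 1.1 (Affymetrix) with the RMA method, which subtracts background, equalizes probe distributions between arrays and combines probes into probe sets. The sources used here do not name the arrays normalized together or the log base; base 2 was read from the range of 0.830 to 12.9. Of 35556 probe sets, 21789 had 1 gene symbol by the platform annotation, 1621 several and 12146 none. The probe set with the highest mean per symbol was kept, which gave 19938 genes; some listed genes are not reported here. Entrez identifiers matched the RefSeq table (GRCm38.p6) for 21698 probe sets. Without raw intensities, detection was not assessed; precision is limited by the number of arrays.

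Groups were taken from sample titles, and the design text calls the mice separate. The comparison used the moderated linear model of limma 3.58.1 under R 4.3.3, two-sided, with 3 residual and 2.39 prior degrees of freedom, Benjamini-Hochberg adjustment over all 19938 genes and a threshold of 0.05. The 95% intervals use the same moderated errors. The test was tried on simulated data of 19938 genes. It recovered 62 of 100 genes shifted by a log2 difference of 2 and 17 of 100 shifted by 1, with 7 false calls among the unshifted genes. The simulated noise was independent between genes and arrays, without the difference in array spread seen here. The false calls in the real data therefore cannot be read from it. The genes and lists were chosen with earlier results of these data known. Genes named were the 10 members, Ccnd1, the called genes of each list or else the 2 with the smallest p, and others where stated. Alternatives are given in the closing section.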

Additional observations from a re-analysis of the deposited data

How the results depend on the processing

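The count of 2 clock genes higher in cyclin D1 glands became 0 after renormalization, 0 with an intensity trend and robust prior, and 0 with array weights, where 3.11% and 1.32% of all genes were called higher under the last pair. With the replicate number of the titles as a block it was 0 as well, where 5.7% of all genes were called higher and 0.0502% lower. The numbers do not pair the mice: same-numbered arrays deviated together with r = -0.026 and 0.126 across genes. The count was 3, with Clock added, on median-centred arrays (6.32% of all genes higher) and with genes dimmer than the median gene left out (14.6% of the rest). It was also 3 with arrays centred on the olfactory receptor mean (12.2%, Clock limma adjusted p = 0.0268). Averaging a gene's probe sets gave 2 (5.49%). When 1 array was left out on either scale, the count of higher clock genes ran from 0 to 2 and that of lower ones from 0 to 1. The count of 2 arose without control 2 on both scales and was made up of Nr1d1 and Clock, not Nr1d2 and Hlf; 6.85% of all genes were higher there as deposited and 11.1% renormalized. Renormalized without control 1 the Hlf difference was 1.09. Among the fits that left out 1 array, Nr1d2 was called in none. Without cyclin D1 replicate 1 or 2, limma called 0 of all genes on either scale, so a count of 0 was fixed there. The same held renormalized without replicate 3, and as deposited without control 1, where 1 control remained. The absence of an Nr1d2 call in those fits is therefore not particular to Nr1d2. Of the other 57 listed genes, 6 were higher, against 2 renormalized, 3 with array weights and 15 with arrays centred on the olfactory receptor mean (12.2% of all genes), an alternative chosen after seeing the data that moves the median of all genes to 0.32. Leaving out 1 array gave 0 to 7 higher and 0 to 4 lower, the 7 and 4 renormalized without control 2, where 11.1% of all genes were higher and 15.8% lower. The median of the E-box and D-box arm was 0.52 on the olfactory-centred scale and 0.0089 to 0.23 with 1 array left out. That of the opposing arm was 0.45 renormalized and 1.27 olfactory-centred, and 0.74 and 1.05 without control 1 and control 2. The first arm minus the other was -0.75 as deposited and -0.40 renormalized. Renormalized without control 1, control 2, and cyclin D1 replicates 1, 2 and 3 in turn, the opposing arm was 0.27, 0.70, 0.41, 0.42 and 0.45, and the difference of the arms was -0.25, -0.50, -0.35, -0.29 and -0.44. The cause of these shifts was not tested.

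Arntl, Hlf and Per3 kept their sign in every fit that tested them. Nr1d2 turned to -0.13 renormalized, and to -0.52, -0.27 and -0.14 renormalized without control 2, cyclin D1 replicate 1 and cyclin D1 replicate 3. Tef turned to 0.15 olfactory-centred, 0.14 without control 2 (against -0.59 without control 1) and 0.15 renormalized without control 2. Per1 turned to 0.26 olfactory-centred and 0.14 without control 2 (against -0.37 without control 1), Per2 to 0.24 olfactory-centred, and Dbp to -0.024 without control 1. Nr1d1 and Clock turned to -0.58 and -0.068 renormalized without control 1. With 2 control arrays, each left-out control leaves 1 array, assumed to vary like the others.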
